A study of Mus with 12 samples.

Results

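The 6 genes described here are 3 orphan nuclear receptors of the NR4A family (Nr4a1, Nr4a2 and Nr4a3), the glucocorticoid receptor gene Nr3c1, and 2 genes that this receptor switches on, Fkbp5 and Tsc22d3. The genes were taken by symbol from the deposited expression table, and 6 of its 27294 genes were found, with 1 row each. The table covers 12 RNA-seq libraries from mouse primary peritoneal macrophages, phagocytes of the abdominal cavity, in 4 groups of n = 3 libraries. The groups were wild type (WT) untreated, WT with oxidised low-density lipoprotein (oxLDL), knockout (KO) untreated and KO with oxLDL. OxLDL is the modified lipid particle that macrophages take up in atherosclerotic plaques. The sample titles say LDL where the treatment label says oxLDL, and the 6 libraries without a treatment label are called untreated. The labels give the genotype as KO with no gene, allele or driver of deletion, and the series title names WEE1, a cell-cycle kinase. Age, sex and strain of the mice, the dose and time of oxLDL, and the animals behind each replicate are not stated in the labels, so p-values measure the spread between these libraries.

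NR4A receptors bind DNA without a known physiological ligand, and their activity is set largely by their amount: they are early-response genes whose transcription rises within a short time of a stimulus such as cAMP, calcium or inflammatory signals. In macrophages NR4A1 is known for restraining inflammatory gene expression and for its role in the survival of some monocytes. The glucocorticoid receptor waits in the cytoplasm in a complex with heat shock proteins and, once bound by a steroid, enters the nucleus and regulates genes by binding DNA or by acting on other factors such as NF-κB and AP-1. FKBP5 is a cochaperone that lowers the steroid affinity of the receptor and forms a negative feedback loop, and TSC22D3, also called GILZ, is a leucine zipper protein through which glucocorticoids dampen inflammation.

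The table gave positions that matched GRCm38. Nr4a1 (ENSMUSG00000023034) lies on chromosome 15 from 101254269 to 101274795, on the plus strand. Nr4a2 (ENSMUSG00000026826) lies on chromosome 2 from 57106830 to 57124003, on the minus strand. Nr4a3 (ENSMUSG00000028341) lies on chromosome 4 from 48045153 to 48086445, on the plus strand. The receptor gene Nr3c1 (ENSMUSG00000024431) is on chromosome 18 from 39410545 to 39519421, on the minus strand. Fkbp5 (ENSMUSG00000024222) is on chromosome 17 from 28399094 to 28517527 and Tsc22d3 (ENSMUSG00000031431) on chromosome X from 140539528 to 140600659, both on the minus strand. The antisense gene Gm22146 and the intronic gene Gm49838 overlap Fkbp5 and held 6 counts each over all 12 libraries. Whether reads of these genes were counted as Fkbp5 cannot be told, since the counting tool and strand setting are not named. All values are per gene, so transcript variants of these genes are not separated.

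Summed counts per library ran from 53588814 to 76809931. Levels are given as FPKM, the deposited fragment counts per length and library size, and differences as edgeR log2 fold changes with their standard error (SE) on counts scaled by TMM, a factor that sets most genes level between libraries. Calls rest on an adjusted p (Benjamini-Hochberg, over 17291 tested genes) below 0.05. The scaling matters in WT cells with oxLDL, where the median log2 change of all genes was -0.06 with TMM and -0.46 with library totals. Wee1 stood at 3.05 ± 0.23 FPKM (SD, n = 3) in WT untreated, 1.62 ± 0.17 in WT oxLDL, 1.48 ± 0.23 in KO untreated and 1.38 ± 0.19 in KO oxLDL libraries, so the KO ranges overlapped that of WT oxLDL. Which part of a gene was deleted is not given, so these gene-level values do not check the genotype. Summed FPKM of 6 macrophage markers was 20950 to 21340 in WT untreated, 14470 to 15450 in WT oxLDL and 10630 to 11770 in the 6 KO libraries, and most of this sum was Lyz2, at 18500 FPKM on average in WT untreated. With TMM, 4 of the 6 markers rose with oxLDL in WT and 2 fell (1 and 4 with library totals). In untreated cells 5 were lower in KO than in WT, from Adgre1 (log2 -1.68), which encodes F4/80, to Mertk (-0.13), and Cd68 was higher (0.40). With oxLDL 5 were again lower in KO (4 with library totals) and Cd68 was higher (0.24). Markers of mast cells summed to 2.73 to 5.29 FPKM in WT and 0.79 to 1.43 in KO libraries, and those of NK cells to 0.92 to 1.73 and at most 0.138. T cell markers summed to at most 0.321 FPKM in any library and did not move together. Cd2 averaged 0.155 FPKM in KO untreated and 0.232 in KO oxLDL, against 0.124 and 0.044 in WT. Cd3e was at 0 in both KO groups. The neutrophil marker S100a8 was also lower in KO (-0.99 untreated, -1.58 with oxLDL). The neutrophil markers S100a9, Ly6g and Retnlg averaged at most 0.0561 FPKM in any group, WT included, and were below the filter for testing. In the other direction, Siglecf stood at 0.447 FPKM in WT untreated, 0.0807 in WT oxLDL, 3.10 in KO untreated and 2.97 in KO oxLDL, while the eosinophil granule genes Prg2 and Epx were at 0 in all groups but KO untreated, where they averaged 0.0170 and 0.00272 FPKM. The B cell marker Cd79b was higher in KO with oxLDL (1.79). Adipoq and Plin1, markers of adipocytes, summed to at most 0.101 FPKM. The part of these markers in the results below was not tested, and fewer cells of a type and less RNA per cell cannot be told apart in such bulk samples.

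The members showed 3 patterns over the groups. Nr4a1, Nr4a3 and Nr3c1 were highest in WT cells with oxLDL and Tsc22d3 was lowest there. Fkbp5 was lower in KO in both treatments and was not called with oxLDL in either genotype with TMM. Libraries of WT and KO did not overlap in either treatment for Nr4a1, Nr3c1 and Tsc22d3 as well as Fkbp5. Nr4a2 passed the test in no comparison. With oxLDL in WT, 4 of the 6 members were called, 3 higher and 1 lower, in a comparison where 51.2% of all genes tested were called, 23.9% higher and 27.2% lower. With oxLDL in KO edgeR called none of the 6, none had an unadjusted p under 0.05, DESeq2 and limma called none, and 0.0116% of all genes were called by edgeR. Between KO and WT untreated, 3 of 6 were called, 1 higher in KO and 2 lower, against 31.0% of all genes (14.8% higher, 16.2% lower). With oxLDL, 5 of 6 were called between the genotypes, 1 higher in KO and 4 lower, against 57.9% of all genes (30.6% higher, 27.4% lower). The difference between the genotypes in their oxLDL change, the interaction, was called for 3 of 6, 1 positive and 2 negative, against 41.7% of all genes (22.1% positive, 19.6% negative). On TMM-scaled values the libraries of the groups compared did not overlap for 4 members with oxLDL in WT, 0 with oxLDL in KO, and 5 between the genotypes both untreated and with oxLDL. The shares of all genes without overlap were 58.6%, 13.4%, 44.9% and 62.8%. With shares this high over all genes, the members' counts show nothing particular to them. Comparisons that share a group are not independent of each other.

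**Figure D1:**
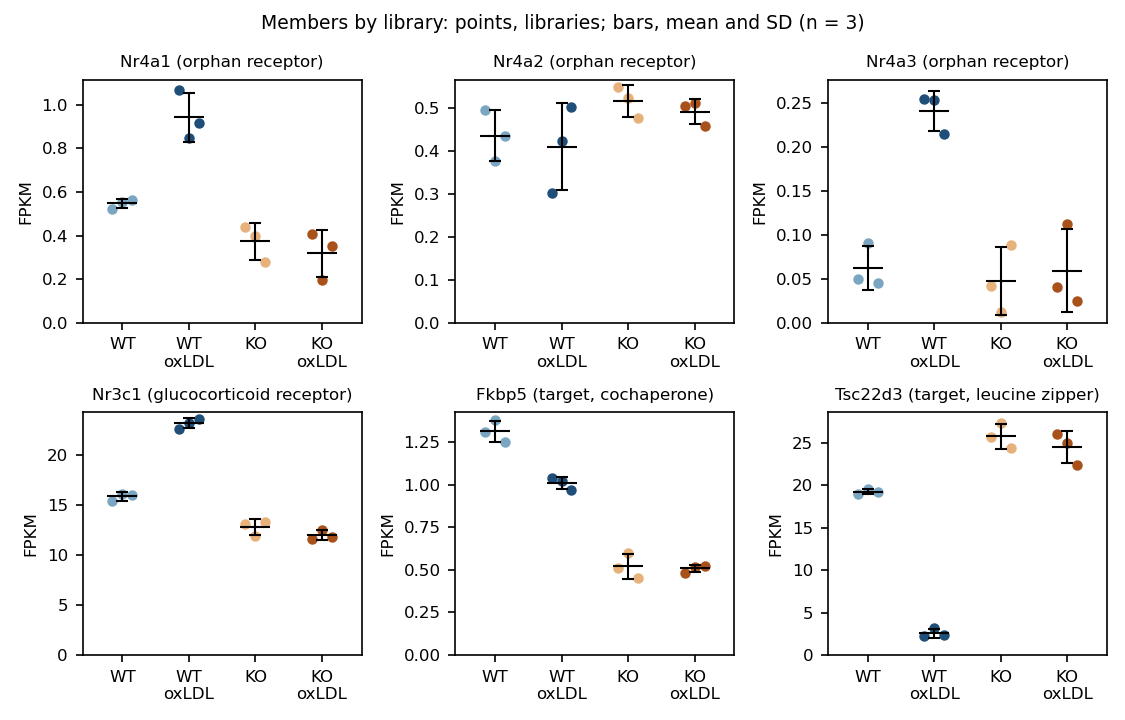
Deposited FPKM of the 6 members (vertical axes, each from 0) in the 4 groups (horizontal axis). Points are libraries and bars are mean and SD, n = 3. The WT oxLDL libraries lie above all others for Nr4a1, Nr4a3 and Nr3c1 and below all others for Tsc22d3, at 2.22 to 3.13 FPKM against at least 19.0.

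Among the NR4A receptors, Nr4a1 rose with oxLDL in WT cells. Its libraries stood at 0.522, 0.556 and 0.564 FPKM in WT untreated, 1.07, 0.847 and 0.917 in WT oxLDL, 0.441, 0.400 and 0.278 in KO untreated and 0.406, 0.197 and 0.352 in KO oxLDL. All 3 WT oxLDL libraries were above all others, the KO groups overlapped each other, and all KO libraries were below all WT libraries. The rise with oxLDL in WT was 1.19 ± 0.26 (log2, SE), or 2.28-fold, with an edgeR adjusted p of 0.001357. With library totals this rise was smaller, at 0.78 on the log2 scale. With oxLDL in KO the difference was -0.23 ± 0.26 with a 95% interval from -0.79 to 0.34. Its level in KO with oxLDL was 3.61-fold below that in WT with oxLDL (log2 -1.85 ± 0.27, edgeR adjusted p 2.74e-05). In untreated cells the KO minus WT difference of -0.44 ± 0.26 was not called (edgeR adjusted p 0.2483), although the FPKM ranges did not overlap.

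The level of Nr4a1 stayed low in every group in absolute terms: it rested on 56 to 295 counts per library. NR4A1, also known as Nur77, is an orphan receptor that macrophages induce after inflammatory stimuli. The change with oxLDL differed between the genotypes by -1.42 ± 0.37 (log2, KO minus WT), with an edgeR adjusted p of 0.006443.

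Nr4a3, which encodes NOR1 was listed at 0.0495, 0.0908 and 0.0456 FPKM in WT untreated libraries and 0.254, 0.254 and 0.215 with oxLDL. In KO libraries it stood at 0.0422, 0.0121 and 0.0878 untreated and 0.0407, 0.113 and 0.0242 with oxLDL. The WT oxLDL libraries lay above the other 9, which overlapped each other. These levels correspond to 86 to 120 counts per library in WT oxLDL and 6 to 54 in the others. The rise with oxLDL in WT was 2.35 ± 0.62 (log2, SE), or 5.11-fold, with a wide 95% interval from 1.03 to 3.68 and an edgeR adjusted p of 0.005155.

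With oxLDL, Nr4a3 in KO cells was 4.93-fold below that in WT cells (log2 -2.30 ± 0.61, edgeR adjusted p 0.004969). The KO libraries themselves differed between untreated and oxLDL by 0.33 ± 0.62, a difference that turned to -0.47 without the second KO oxLDL library, which held 54 of the 87 counts of its group. The interaction, -2.03 ± 0.87, missed the threshold (edgeR adjusted p 0.07725). DESeq2 gave -2.08 with an adjusted p of 0.04665, and without the second KO untreated or the second KO oxLDL library edgeR gave -2.48 (adjusted p 0.01979) and -2.82 (adjusted p 0.01844).

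Nr4a2, which encodes NURR1, did not follow the other family members. It stood at 0.497, 0.378 and 0.435 FPKM in WT untreated, 0.303, 0.424 and 0.504 in WT oxLDL, 0.549, 0.524 and 0.477 in KO untreated and 0.507, 0.511 and 0.459 in KO oxLDL. The groups overlapped in every comparison on this scale. Its log2 difference with oxLDL was 0.32 ± 0.22 in WT (95% interval -0.15 to 0.79) and -0.07 ± 0.21 in KO (-0.53 to 0.40). Between KO and WT it was 0.34 ± 0.22 untreated (-0.12 to 0.81) and -0.05 ± 0.22 with oxLDL (-0.51 to 0.42). The WT oxLDL difference was -0.09 with library totals, so it has no firm direction.

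The family's makeup shifted with these values. Summed FPKM of the 3 receptors was 1.05 ± 0.02 (SD, n = 3) in WT untreated, 1.59 ± 0.06 in WT oxLDL, 0.937 ± 0.095 in KO untreated and 0.870 ± 0.073 in KO oxLDL libraries. Nr4a1 made up 52.4 ± 3.0% of the sum in WT untreated, 59.1 ± 5.7% in WT oxLDL, 39.5 ± 5.6% in KO untreated and 36.3 ± 10.6% in KO oxLDL. Nr4a2 was the larger part in KO libraries, at 55.3 ± 1.8% untreated and 56.8 ± 4.9% with oxLDL, against 41.7 ± 4.8% and 25.8 ± 6.3% in WT. Nr4a3 took 15.1 ± 1.8% in WT oxLDL and between 5.27 and 6.97% on average in the other groups. The exact 2-sided permutation test gave 0.1 for the sum and for the Nr4a1 share with oxLDL in WT and for KO against WT with oxLDL, the smallest p that 3 against 3 libraries allow (adjusted p 0.16 over 16 comparisons of sums, shares and ratios).

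**Figure D2:**
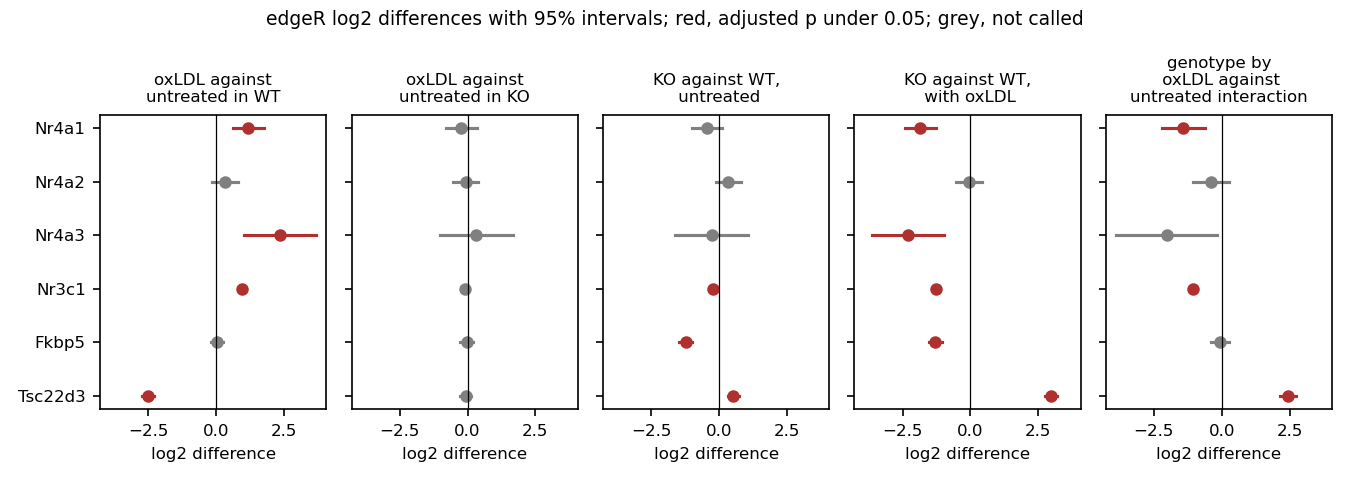
Log2 differences of the 6 members in 5 comparisons (horizontal axes, edgeR fit), with 95% intervals as bars, red where the adjusted p was under 0.05 and grey elsewhere. All 6 points in the comparison of oxLDL with untreated in KO are grey, and the widest intervals belong to Nr4a3.

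The glucocorticoid receptor gene Nr3c1 was far above the NR4A genes in level and rose with oxLDL in WT cells. Its libraries stood at 15.4, 16.2 and 16.1 FPKM in WT untreated, 22.7, 23.2 and 23.7 in WT oxLDL, 13.1, 11.9 and 13.4 in KO untreated and 11.6, 12.6 and 11.8 in KO oxLDL. Every WT oxLDL library was above every WT untreated library, and every KO library was below both. The 2 KO groups overlapped. The rise with oxLDL in WT was 0.96 ± 0.05 (log2, SE), or 1.94-fold, with an edgeR adjusted p of 2.998e-10. Its size depends on the scaling, which the SE does not include. The log2 rise was 0.55 with library totals and 0.52 with limma on log2(FPKM + 1).

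In KO the oxLDL difference of Nr3c1 was -0.10 ± 0.05, with a 95% interval from -0.20 to 0.01 and an edgeR adjusted p of 0.7327. KO cells held less Nr3c1 RNA than WT cells: the difference was -0.20 ± 0.05 untreated (edgeR adjusted p 0.003682) and -1.25 ± 0.05 with oxLDL (edgeR adjusted p 7.742e-12). The untreated difference is a 1.15-fold gap and the treated difference a 2.38-fold gap. The oxLDL changes differed between the genotypes by -1.05 ± 0.07 (edgeR adjusted p 9.484e-09).

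Tsc22d3, the GILZ gene, fell with oxLDL in WT cells. Its libraries stood at 19.0, 19.6 and 19.2 FPKM in WT untreated and 2.22, 3.13 and 2.31 in WT oxLDL. They stood at 25.7, 27.3 and 24.4 in KO untreated and 26.0, 25.0 and 22.4 in KO oxLDL. The WT oxLDL libraries were far below all others, and all KO libraries were above all WT libraries. With oxLDL in WT the gene fell by 2.51 ± 0.11 on the log2 scale, or 5.70-fold, with an edgeR adjusted p of 5.512e-11.

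In KO the oxLDL difference of Tsc22d3 was -0.08 ± 0.10, with a 95% interval from -0.28 to 0.13. The KO minus WT difference was 0.53 ± 0.10 untreated (1.44-fold, edgeR adjusted p 0.0005768) and 2.96 ± 0.11 with oxLDL (7.80-fold, edgeR adjusted p 4.544e-12). The interaction was 2.44 ± 0.14 (edgeR adjusted p 3.879e-09). A processed pseudogene within the gene held 1 count in all, and whether reads of the 2 were counted for each other cannot be told.

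Fkbp5, the other target, did not move with Tsc22d3. Its libraries stood at 1.31, 1.38 and 1.25 FPKM in WT untreated, 1.04, 1.02 and 0.969 in WT oxLDL, 0.510, 0.600 and 0.454 in KO untreated and 0.485, 0.519 and 0.524 in KO oxLDL. All 6 KO libraries were below all 6 WT libraries. The KO minus WT difference was -1.23 ± 0.11 untreated (2.34-fold lower, edgeR adjusted p 5.826e-07) and -1.29 ± 0.11 with oxLDL (2.44-fold lower, edgeR adjusted p 1.233e-07). Their difference, the interaction, was -0.06 ± 0.15 with a 95% interval from -0.40 to 0.27.

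Whether Fkbp5 changed with oxLDL in WT depends on the scaling. The log2 difference with TMM was 0.03 ± 0.11 (95% interval -0.21 to 0.26, edgeR adjusted p 0.8598). With library totals it was -0.38 (edgeR adjusted p 0.007225), and limma on log2(FPKM + 1) gave -0.20 (adjusted p 0.004084). The FPKM ranges of the WT groups did not overlap, while after division by the TMM factors they did. In KO the oxLDL difference was -0.04 ± 0.11.

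The targets were also set against the level of their receptor. Tsc22d3 FPKM over Nr3c1 FPKM was 1.21 ± 0.02 (SD, n = 3) in WT untreated, 0.110 ± 0.021 in WT oxLDL, 2.02 ± 0.24 in KO untreated and 2.04 ± 0.18 in KO oxLDL libraries. The mean ratio was 11.0-fold lower with oxLDL in WT, and 18.6-fold higher in KO than in WT with oxLDL. Fkbp5 FPKM over Nr3c1 FPKM was 0.0828 ± 0.0041 in WT untreated, 0.0436 ± 0.0025 in WT oxLDL, 0.0410 ± 0.0083 in KO untreated and 0.0425 ± 0.0016 in KO oxLDL. The WT untreated libraries stood above the other 9, whose ranges overlapped. A ratio within a library does not depend on library scaling. The exact 2-sided permutation test gave 0.1 for each of these separations (adjusted p 0.16), the smallest the design allows.

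**Figure D3:**
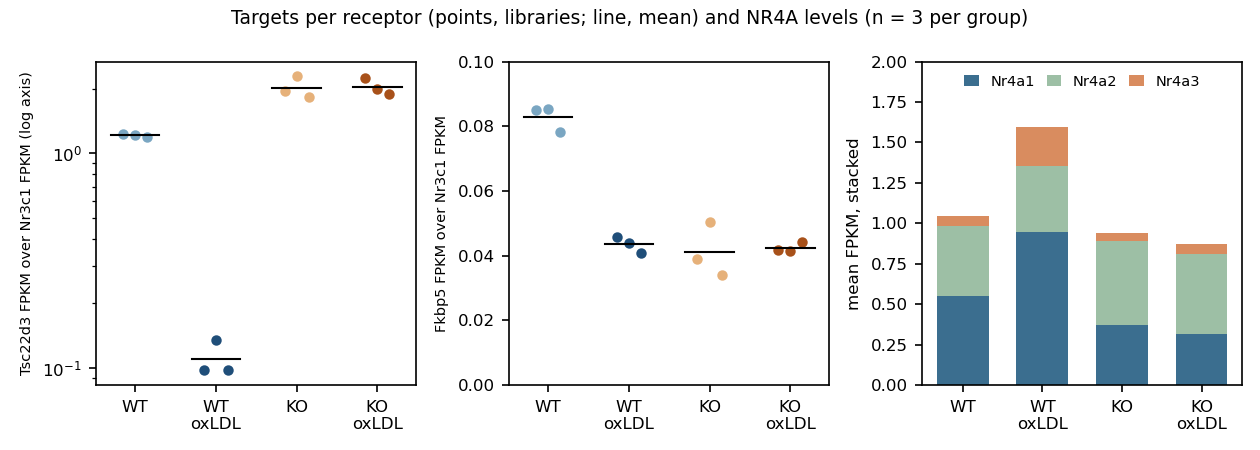
Left and middle, Tsc22d3 and Fkbp5 FPKM divided by Nr3c1 FPKM in each library (points, with the group mean as a line; the left axis is logarithmic). Right, mean FPKM of the NR4A receptors stacked by gene, n = 3 per group. The Tsc22d3 ratio lies between 0.0976 and 0.135 in WT oxLDL and at 1.195 or above elsewhere.

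FPKM is per length, so levels can be ordered between genes. In WT untreated the order was Tsc22d3, Nr3c1, Fkbp5, Nr4a1, Nr4a2 and Nr4a3, with no overlap between neighbours. In WT oxLDL Nr3c1 was first and Tsc22d3 second, and Fkbp5 and Nr4a1 overlapped at means of 1.01 and 0.944 FPKM. In both KO groups Tsc22d3 was first and Nr3c1 second, Fkbp5 and Nr4a2 overlapped, and Nr4a2 stood above Nr4a1. The order was the same in each group when FPKM was divided by the TMM factor.

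Other genes of the same pathways were read from lists chosen with earlier results of these data known. Their counts stand beside shares of all genes of 51.2% called with oxLDL in WT (23.9% higher, 27.2% lower), 31.0% between the genotypes untreated, 57.9% with oxLDL and 41.7% in the interaction. The number of target genes called with oxLDL in WT, 12 of 21, is near that background and is no result about the list, and likewise the 8 of 14 coregulators as a number called in either direction. Of 23 glucocorticoid target genes, 21 were tested, and with oxLDL in WT 6 rose, 6 fell and 9 were not called, with a median log2 change of 0.23 against -0.06 over all genes. Nfkbia, which encodes the NF-κB inhibitor IκBα, rose from 44.6 ± 0.96 to 173.5 ± 21.9 FPKM (log2 2.37 ± 0.08). Dusp1, a phosphatase that switches off MAP kinases, rose from 2.01 ± 0.15 to 7.57 ± 0.83 FPKM (2.32 ± 0.13). Rgs2, a regulator of G protein signalling, fell from 13.7 ± 1.1 to 0.676 ± 0.059 FPKM (-3.92 ± 0.09), and Glul, glutamine synthetase, from 39.7 ± 0.8 to 7.81 ± 0.49 FPKM (-1.94 ± 0.05). With library totals 5 rose and 9 fell. Nfkbia and Dusp1 are also known targets of inflammatory signalling.

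In KO, edgeR called none of the 21 target genes with oxLDL, and 1 had an unadjusted p under 0.05. Of the chaperone, coregulator, steroid handling, Nr4a regulator, CREB-responsive and other nuclear receptor genes described below, edgeR likewise called none there, and 2, 1, 0, 2, 1 and 4 genes had unadjusted values below 0.05. By DESeq2 and limma none of them was called either. Between KO and WT untreated, 5 target genes were higher and 5 lower (4 and 7 with library totals). Cd163, a haemoglobin scavenger receptor, stood at 0.0707 ± 0.0245 FPKM in KO and 1.33 ± 0.12 in WT (log2 -4.09 ± 0.29), and Nfkbia at 9.09 ± 0.58 in KO (-2.19 ± 0.08). Anxa1, which encodes the anti-inflammatory protein annexin A1, stood at 362.8 ± 8.3 FPKM in KO and 116.2 ± 7.4 in WT (1.75 ± 0.07). With oxLDL, 9 were higher in KO and 8 lower, led by Rgs2 (4.27 ± 0.09) and Nfkbia (-4.25 ± 0.08). The interaction was called for 10 of the 21, with 5 in each direction (10 positive and 4 negative with library totals).

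Of 11 chaperone genes whose products hold the receptor, 10 rose with oxLDL in WT and Fkbp4 fell (-0.21), with a median of 0.66 against -0.06 over all genes. Hsp90aa1, the inducible HSP90, rose from 65.7 ± 4.1 to 132.7 ± 3.0 FPKM (log2 1.42 ± 0.05). Dnajb1, an HSP40 cochaperone, rose by 1.36 ± 0.05, Hspa8, the constitutive HSC70, by 1.26 ± 0.06, and Stip1, the HOP protein that links HSP70 to HSP90, by 1.23 ± 0.05. These 4 and Hsp90ab1 (1.07) rose well above the shift between scalings, but with library totals 6 of the 11 rose and 3 fell, with Hspa4 (-0.19) and Ppid (-0.19) called in the opposite direction. FKBP4, or FKBP52, competes with FKBP5 for the HSP90 complex.

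Between KO and WT untreated, 2 chaperone genes were higher in KO (Hspa8 0.21, St13 0.17) and 2 lower (Dnajb1 -0.21, Hsp90ab1 -0.18). With library totals 4 were lower and none higher. With oxLDL, 10 of 11 were lower in KO and Fkbp4 was higher, with a median of -0.92 against 0.05 over all genes (8 lower and 2 higher with library totals). The interaction was called for 10 of 11, all negative, led by Hsp90aa1 (-1.50 ± 0.07), and for 2 positive and 7 negative with library totals.

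**Figure D4:**
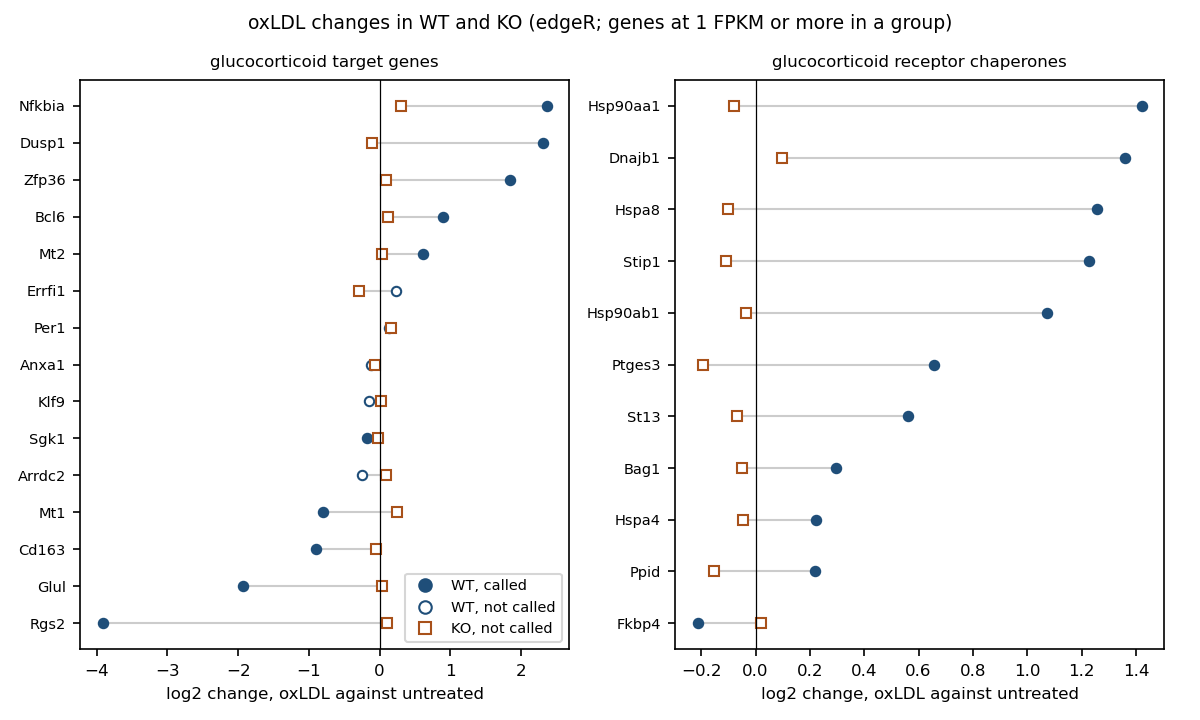
Log2 changes with oxLDL (horizontal axes) in WT (circles, filled where called) and KO (open squares, none called) for 15 glucocorticoid target genes and 11 receptor chaperone genes with at least 1 FPKM in a group. KO values lie near 0, and WT values run from -3.92 (Rgs2) to 2.37 (Nfkbia) among targets.

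Coregulators are proteins that receptors recruit to act on chromatin. Of 14 genes, 8 rose and none fell with oxLDL in WT, the largest being Smarca4, the BRG1 chromatin remodeller (0.76 ± 0.08), and Ncoa1, the steroid receptor coactivator SRC-1 (0.63 ± 0.06). This direction depends on scaling: with library totals 3 rose and 7 fell, and Ncor1 passed the test in the other direction (-0.16). Between KO and WT untreated 3 were lower, of which Ncoa1 had the largest difference (-0.47 ± 0.06). With oxLDL 8 were lower in KO, but with library totals 5 were lower and 5 higher, so this direction depends on scaling as well. The interaction depended on the scaling too, with 7 genes called negative with TMM, and 6 positive and none negative with library totals.

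Genes that supply, export or bind corticosteroids differed widely in level. H6pd stood at 8.61 to 15.7 FPKM on average and Abcb1b at 2.71 to 6.71. Hsd11b1, whose product regenerates active corticosterone, stood at 0.159 FPKM in WT untreated and at most 0.0695 on average in the other groups, and Nr3c2, the mineralocorticoid receptor gene, at no more than 0.102. Neither gene was called in any comparison. Of 6 genes, 1 rose and 2 fell with oxLDL in WT. The steroid exporter gene Abcb1a rose from 1.06 ± 0.09 to 2.13 ± 0.14 FPKM (log2 1.41 ± 0.10) and its paralog Abcb1b fell (-0.62 ± 0.07). Whether some reads were shared between these paralogs was not tested. H6pd, which supplies the cofactor of the HSD11B1 enzyme, fell (-0.46 ± 0.07). Abcb1a was higher in KO than WT untreated (1.29 ± 0.10) and not called with oxLDL (-0.02).

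Regulators known to act on Nr4a transcription, such as CREB, its coactivators, MEF2, NFAT and protein kinase A, numbered 16, all tested. With oxLDL in WT 4 rose and 10 fell, with a median of -0.25 against -0.06 over all genes, and 2 rose and 12 fell with library totals. Nfatc2, a calcium-dependent factor, fell by 2.07 ± 0.16 on the log2 scale, Nfatc1 by 1.13 ± 0.08 and Mef2c by 1.09 ± 0.10, while Crem, which encodes a cAMP-responsive modulator, rose (1.06 ± 0.14). Nr4a1 and Nr4a3 rose in the same libraries, and whether the RNA levels of these regulators bear on that was not tested. With oxLDL 9 were higher and 4 lower in KO than in WT (12 and 2 with library totals), Nfatc2 by 1.90 ± 0.16 among the higher.

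Early genes that respond to CREB, as Nr4a genes do, went both ways: of 16, 6 rose and 5 fell with oxLDL in WT. Pde4b, a cAMP phosphodiesterase, rose from 3.39 ± 0.21 to 16.6 ± 0.5 FPKM (log2 2.70 ± 0.09), and Junb, an AP-1 subunit, had a wide spread at 21.5 ± 18.7 FPKM with oxLDL against 6.69 ± 1.61 (2.10 ± 0.51, edgeR adjusted p 0.003099). Sik1, a kinase that restrains CREB coactivators, fell (-1.17 ± 0.08). Pde4b in KO stood at 0.670 ± 0.047 FPKM untreated and 0.678 ± 0.090 with oxLDL, -2.23 ± 0.09 and -4.91 ± 0.10 below WT on the log2 scale. Between KO and WT, 3 of the 16 were higher and 4 lower untreated, and 5 and 5 with oxLDL.

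Of 45 other nuclear receptor genes, 37 had a row and 28 were tested. With oxLDL in WT 5 rose and 8 fell, with a median of -0.24 against -0.06 over all genes, and 3 rose and 10 fell with library totals. Pparg, the lipid-sensing receptor that drives fat uptake and storage genes, fell from 8.16 ± 0.05 to 0.714 ± 0.088 FPKM (log2 -3.09 ± 0.08), the largest change of the list among genes of at least 1 FPKM. The clock repressor gene Nr1d2 fell (-1.35 ± 0.09), as did Rora (-0.93 ± 0.08). Nr1h3, the liver X receptor alpha gene, rose from 27.1 ± 0.8 to 40.5 ± 0.3 FPKM (0.99 ± 0.06), close in size to Nr3c1 (0.96).

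Pparg was at 28.5 ± 1.0 FPKM in KO untreated and 27.8 ± 0.7 in KO oxLDL, 1.91 ± 0.06 and 4.96 ± 0.08 above WT on the log2 scale. Its order over the groups was that of Tsc22d3: lowest in WT oxLDL, then WT untreated, then both KO groups. Of the 28 receptor genes tested, 3 were higher in KO and 6 lower untreated, and 9 were higher and 7 lower with oxLDL (10 and 3 with library totals). Nr1h2, the liver X receptor beta gene, had an oxLDL difference of 0.97 in KO that was not called (edgeR adjusted p 0.3615).

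**Figure D5:**
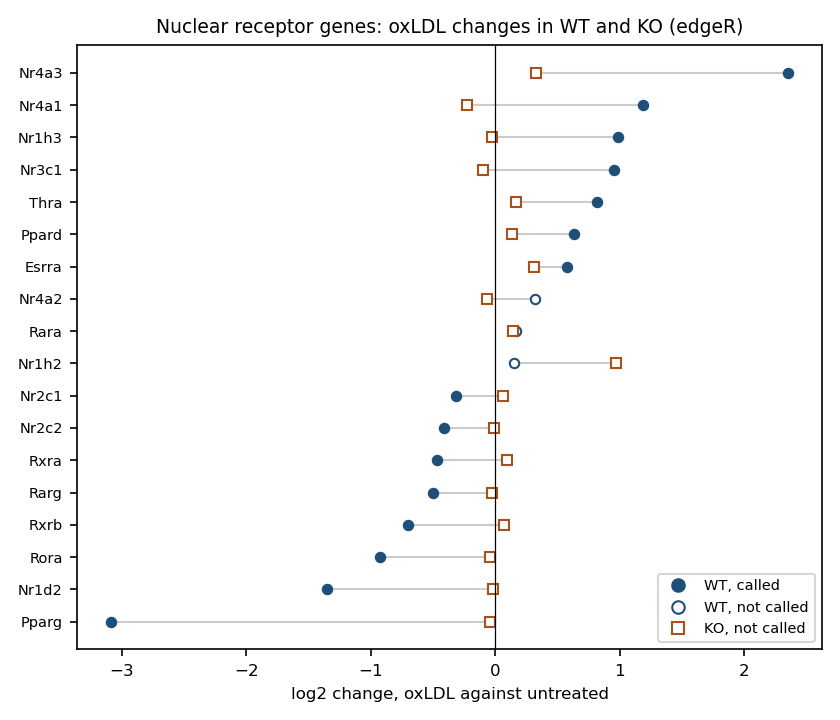
Log2 changes with oxLDL (horizontal axis) in WT (circles, filled where called) and KO (open squares, none called) for 18 nuclear receptor genes: 14 others with at least 1 FPKM in a group and the 4 receptors described here. Nr4a3, Nr4a1, Nr1h3 and Nr3c1 are at the upper end in WT and Pparg at the lower end.

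Over the 12 libraries, the genes whose log2 CPM followed each member most closely were found among 11172 tested genes with at least 1 FPKM in a group. They are a description, since libraries of a group share their treatment and genotype. For Nr3c1 they were Etnk1 (Pearson r = 0.998), Pnpt1 (0.998) and Lims1 (0.997), and for Tsc22d3 Acaa2 (0.998), Havcr2 (0.998) and Slc16a7 (0.997). Havcr2, the TIM-3 receptor gene, went from 11.4 FPKM in WT untreated to 0.539 in WT oxLDL and stood at 20.5 and 20.03 in KO. For Fkbp5 they were Ly6a (0.993), Marco (0.989) and Nadk (0.988). Marco, a scavenger receptor, stood at 101.6 and 105.5 FPKM in WT and 2.80 and 2.74 in KO.

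For Nr4a1 the closest genes after a gene with a clone name (0.971) were Gm16096 (0.960) and Gpr85 (0.964), an orphan G protein-coupled receptor gene at 0.781 FPKM in WT untreated, 4.502 in WT oxLDL and 0.263 and 0.275 in the KO groups. For Nr4a3 they were Lad1 (0.927), Gm49205 (0.926) and Syncrip (0.925). These r values rest on TMM-scaled counts. By FPKM Syncrip was lowest in WT oxLDL, unlike Nr4a3, at 12.45 against 13.9 in WT untreated and 13.23 and 13.17 in the KO groups. For Nr4a2 the closest genes were Rnf185 (0.894), Ufm1 (0.842) and Coq3 (0.827), the lowest r values of the 6 members.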

How the data were processed

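RNA was sequenced in 12 libraries of mouse peritoneal macrophages, with n = 3 libraries in each of 4 groups taken from the labels. The deposited table holds, per the file headers, raw counts of reads for 27294 genes and their FPKM, which the authors scaled for gene length and library size. Reads were processed with HISAT2 2.0 and Bowtie 0.12.2 against mm8, per the submitters' processing notes. No source used here names the counting tool, the annotation or the strand setting. Positions in the table overlapped those of GRCm38 for 99.93% of 21990 matched genes, so they are given as GRCm38. In 54 rows a symbol repeated, and no pair of libraries was identical.

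From the counts, edgeR 4.0.16 (R 4.3.3) was run with TMM, filterByExpr (17291 genes kept) and a quasi-likelihood test over the 4 groups with no block (common dispersion 0.0279, prior degrees of freedom 5.57). Intervals for differences are 95%. The alternatives were DESeq2 1.42.0, library totals, no filter, limma 3.58.1 on log2(FPKM + 1), a replicate block, only the groups compared, and leaving out each of the 12 libraries. The code was tested on simulated data. Where a group held 0 counts in all 3 libraries, list medians were also taken with that gene at the bound that 3 counts in the group would give. This changed no printed median. The 6 members and all lists were chosen with earlier results of these data known. Named list genes are at most 4 per list and comparison, the largest called changes with at least 1 FPKM in a group; members are always named, and genes named outside this rule were chosen after their values were seen. The value of 1 coregulator gene is not reported here.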

Additional observations from a re-analysis of the deposited data

Results flagged for a closer look

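For 3 members the change with oxLDL differed between the genotypes in edgeR's test of the difference itself (KO minus WT). Nr4a1 differed by -1.42 (log2, adjusted p 0.006443), with a rise in WT and -0.23 in KO. Nr3c1 differed by -1.05 (adjusted p 9.484e-09), with a rise of 0.96 in WT and -0.10 in KO. Tsc22d3 differed by 2.44 (adjusted p 3.879e-09), with -2.51 in WT and -0.08 in KO. Over all genes tested, 41.7% differed in this way.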

How the results depend on the processing

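Of 534 alternative values of the members, 510 kept their direction and their side of the threshold. Every call of Nr4a1, Nr3c1 and Tsc22d3 held under all of them, as did those of Nr4a3 with oxLDL in WT and between the genotypes with oxLDL, and those of Fkbp5 between the genotypes. The sizes moved with the scaling. Under library totals the log2 oxLDL changes in WT were 0.782 for Nr4a1, 1.945 for Nr4a3, 0.547 for Nr3c1 and -2.92 for Tsc22d3. With library totals, the difference with oxLDL in WT was -0.089 for Nr4a2 and -0.381 for Fkbp5, that of Nr4a2 between the genotypes with oxLDL was 0.258, and the interactions of Nr4a2 and Fkbp5 were 0.025 and 0.35. With limma on log2(FPKM + 1) these 5 values were -0.028, -0.204, 0.084, 0.005 and 0.193, and 5 members in place of 3 were called in the interaction. Leaving out single libraries turned the sign of some uncalled differences. Fkbp5 ran from -0.012 to 0.053 with oxLDL in WT, from -0.123 to 0.084 with oxLDL in KO and from -0.149 to 0.059 in the interaction. Nr4a1 ran from -0.438 to 0.036 with oxLDL in KO. Nr4a3 ran from -0.471 to 1.127 with oxLDL in KO and from -1.068 to 0.178 between the genotypes untreated. Nr4a2 ran from -0.242 to 0.131 between the genotypes with oxLDL. The Nr4a3 interaction passed the threshold in 4 alternatives.

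The number of genes called with oxLDL in KO, 2, was 97 with DESeq2, 1 with no filter, 1 with limma, 61 with only the groups compared, and 0 to 57 when each library was left out in turn, highest without the first WT oxLDL library. The cause was not tested. Members called in the interaction ran from 3 to 4 without single libraries. Same-numbered libraries did not deviate together (r from -0.045 to 0.031), which cannot show whether the numbers pair samples by animal or batch. The second library of each WT group was the least deep, at 54574550 counts untreated and 53588814 with oxLDL. All others held at least 74672027. With the replicate number as a replicate block, 0 genes were called with oxLDL in KO and 8603 with oxLDL in WT, and no call of a member changed. Depth limits Nr4a3, with 6 to 120 counts per library.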
